A study of Mus musculus with 12 samples.

Results

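Cytokinesis, the step in which a dividing cell splits its cytoplasm, was followed through 10 genes of its machinery, namely *Ect2*, *Racgap1*, *Kif23*, *Kif20a*, *Prc1*, *Anln*, *Aurkb*, *Incenp*, *Cit* and *Rhoa*. The genes were chosen by name for their roles in the process and make up 10 of the 19937 genes represented on the arrays. Gene expression was measured on 12 GeneChip Mouse Gene ST arrays, 4 for each of 3 populations from the livers of mouse embryos at the stage E14.5. Megakaryocytes (MEG) were KIT+ progenitors that were expanded in culture with stem cell factor and thrombopoietin, matured with thrombopoietin alone and enriched on beads for CD41, a platelet integrin. Erythroblasts (ERY) were purified on beads for Ter119, an antigen of maturing red cells, and were not cultured. Hematopoietic stem and progenitor cells (HSPC, whose arrays carry the label HSC) were depleted of cells with antigens of lymphocytes (CD5 and CD45R among them), of myeloid cells (CD11b, Ly-6G/C) and of red cell precursors (Ter119, CD71), then sorted for Sca1, and were not cultured. No group carried a mutation or a drug according to the labels, and the strain is not given in the sources used here. MEG are the only cultured population, so culture and cell type cannot be told apart in any comparison with MEG.

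In a dividing animal cell, PRC1 bundles the microtubules between the separating chromosomes, and centralspindlin, a complex of KIF23 and RACGAP1, gathers there. The chromosomal passenger complex, with its kinase AURKB and its scaffold INCENP, is carried to this midzone by KIF20A. Centralspindlin recruits ECT2, the exchange factor that activates the GTPase RHOA below the cell surface, and RHOA then drives a ring of actin and myosin that anillin (ANLN) holds in place and that matures, with citron kinase (CIT), into the midbody. Megakaryocytes become polyploid through endomitosis, in which mitosis begins but cytokinesis is not completed, whereas erythroblasts go on dividing while they mature. Low activity of RhoA at the cleavage furrow, low levels of the exchange factors ECT2 and GEF-H1 (*Arhgef2*) and the silencing of the myosin heavy chain gene *Myh10* are known features of endomitotic megakaryocytes.

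The labels were checked against markers. All 6 measured MEG markers were higher in MEG than in both other populations, all 7 measured ERY markers were higher in ERY than in both, and all 6 measured HSPC markers were lower in ERY than in HSPC. In MEG, 4 of the HSPC markers were lower than in HSPC and 1 was higher. Markers of hepatocytes, the parenchymal cells of the organ, also differed among the populations, and the log2 of the summed level of the 7 markers lay between 8.46 and 8.90 on MEG arrays, between 13.95 and 14.63 on ERY arrays and between 11.83 and 13.63 on HSPC arrays. Of these 7 markers, 6 were lower in MEG than in HSPC, all 7 were lower in MEG than in ERY and all 7 were higher in ERY than in HSPC. Of 7 macrophage markers, 0 were called between MEG and HSPC (at an unadjusted p under 0.05 limma gave 1 lower and 0 higher), 4 were lower in MEG against ERY, and 5 were higher in ERY against HSPC. The part of such cells in the results was not tested. HSPC arrays 1 and 2 lay above HSPC arrays 3 and 4 on every cytokinesis gene, with wide ranges on 4 of them. MEG array 4 had a raised background. Results that rest on these arrays are therefore also given without them. In bulk RNA, fewer dividing cells and less RNA of a gene per dividing cell cannot be told apart.

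The promoters of these genes are shown because the members moved together between MEG and ERY, as described below, and because many genes of late cell division carry a pair of short elements that are bound by known cell cycle factors. These are the cell cycle genes homology region TTTGAA, which is bound by the DREAM complex in resting cells and by MYBL2 and FOXM1 complexes in dividing cells, and the box CCAAT of NF-Y. The RefSeq table of promoters (GRCm38.p6) holds a window of 250 bases before and 50 bases after the transcription start for 7 of the 10 genes, *Ect2*, *Racgap1*, *Kif23*, *Prc1*, *Anln*, *Cit* and *Rhoa*, and names none for *Kif20a*, *Aurkb* and *Incenp*. The windows that hold TTTGAA follow, 5′ to 3′ on the strand of the gene, with both elements in capitals, written as TTCAAA or ATTGG where they run on the opposite strand. They are chr3:27153829-27154128 on the minus strand for *Ect2*, chr15:99651607-99651906 on the minus strand for *Racgap1*, chr9:61946750-61947049 on the minus strand for *Kif23*, chr7:80294201-80294500 on the plus strand for *Prc1* and chr9:22389157-22389456 on the minus strand for *Anln*.
Ect2: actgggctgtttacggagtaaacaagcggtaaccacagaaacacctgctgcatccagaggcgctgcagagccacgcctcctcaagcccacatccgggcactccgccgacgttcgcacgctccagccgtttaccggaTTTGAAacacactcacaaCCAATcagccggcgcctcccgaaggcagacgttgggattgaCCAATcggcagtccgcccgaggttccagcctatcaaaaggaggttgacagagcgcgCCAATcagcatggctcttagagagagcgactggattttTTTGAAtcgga
Racgap1: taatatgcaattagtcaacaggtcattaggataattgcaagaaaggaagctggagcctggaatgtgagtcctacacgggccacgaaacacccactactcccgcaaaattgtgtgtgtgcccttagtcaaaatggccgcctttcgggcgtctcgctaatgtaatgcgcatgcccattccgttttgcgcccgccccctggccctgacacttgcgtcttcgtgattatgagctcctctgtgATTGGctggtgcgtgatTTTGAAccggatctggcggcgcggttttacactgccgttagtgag
Kif23: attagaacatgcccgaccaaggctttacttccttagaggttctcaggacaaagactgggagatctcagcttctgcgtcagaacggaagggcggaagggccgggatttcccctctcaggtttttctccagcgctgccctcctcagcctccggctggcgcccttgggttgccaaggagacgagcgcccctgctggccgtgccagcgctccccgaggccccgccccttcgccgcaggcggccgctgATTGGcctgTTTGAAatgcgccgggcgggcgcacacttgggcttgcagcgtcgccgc
Prc1: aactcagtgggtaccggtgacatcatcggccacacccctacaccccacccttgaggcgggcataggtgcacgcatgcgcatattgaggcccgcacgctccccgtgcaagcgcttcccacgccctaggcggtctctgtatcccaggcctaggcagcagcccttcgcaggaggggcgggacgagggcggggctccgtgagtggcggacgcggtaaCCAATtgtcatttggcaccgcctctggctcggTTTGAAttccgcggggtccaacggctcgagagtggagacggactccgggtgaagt
Anln: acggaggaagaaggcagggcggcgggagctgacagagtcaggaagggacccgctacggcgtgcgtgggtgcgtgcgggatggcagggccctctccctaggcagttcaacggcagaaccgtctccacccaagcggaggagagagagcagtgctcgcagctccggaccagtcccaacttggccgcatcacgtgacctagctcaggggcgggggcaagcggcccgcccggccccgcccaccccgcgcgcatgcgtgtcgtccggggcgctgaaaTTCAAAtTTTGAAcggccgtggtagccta
Both elements stood in the windows of 4 of the 7 genes, against 7.12% of the 27025 genes with a window. Counted from the transcription start as 1, TTTGAA began at 6 in *Racgap1*, at 3 in *Kif23* and at -5 in *Prc1*, and a CCAAT box in either orientation began at -12, -7 and -37 in the same genes. *Ect2* held TTTGAA at -114 and 40 and CCAAT at -96, -55 and 2. *Anln* held TTTGAA at 29 and its reverse complement at 22, and no CCAAT. In all, TTTGAA was in 5 of the 7 windows, against 18.1% of all windows, and CCAAT in 4 of 7, against 37.9%. The windows of *Cit* and *Rhoa* held neither. The same search found both elements in 9 of 12 windows of other mitotic genes and in 0 of 15 windows of genes for the midbody and abscission. Each of 7 further motifs was searched on both strands, and no window of the 7 genes held one. These were the variant TTCGAA (1.57% of all windows), the E2F sites TTCCCGCC (2.24%), TTTGGCGC (0.537%) and TTTCCCGC (1.11%), the GATA site AGATAA (11.4%), and the ETS sites CACTTCC (11.2%) and ACTTCCGG (4.0%). TTCCCGCC and TTTCCCGC overlap in sequence. A match is a match of letters only.

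The deposited values are on the log2 scale, where 1 unit means a 2-fold change, and they compare a gene between arrays, not 1 gene with another. A gene was called higher or lower beyond a 2-fold change at an adjusted p under 0.05 (limma, Benjamini-Hochberg adjustment over all 19937 genes). *Rhoa* aside, each of these genes was lower in MEG than in ERY, and the RNA of *Rhoa* itself was level across the 3 populations. In MEG against ERY, 9 of the 10 genes were called lower and 0 higher, where 7.77% of all genes were called lower and 8.75% higher. The median log2 fold change of the 10 genes was -2.35, against -0.02 over all genes, and on 9 of them all 4 MEG arrays lay below all 4 ERY arrays, as they did for 17.7% of all genes. The limma test at an unadjusted p under 0.05 gave the same counts, 9 lower and 0 higher. In MEG against HSPC, 5 genes were called lower, *Ect2*, *Racgap1*, *Kif20a*, *Aurkb* and *Incenp*, and 0 higher, where 11.4% of all genes were called lower and 8.77% higher. The median was -0.84, against -0.02 over all genes, and on the 5 called genes all 4 MEG arrays lay below all 4 HSPC arrays, as they did for 17.4% of all genes. At an unadjusted p under 0.05 limma gave 6 lower and 0 higher. The count of 5 became 3, without *Aurkb* and *Incenp*, when HSPC array 1, HSPC array 2 or MEG array 1 was left out. In ERY against HSPC, 6 genes were called higher, *Ect2*, *Kif23*, *Prc1*, *Anln*, *Incenp* and *Cit*, and 0 lower, where 8.35% of all genes were called higher and 12.3% lower. The median was 1.52, against 0.03 over all genes, and at an unadjusted p under 0.05 limma gave 8 higher and 0 lower. On 9 genes all 4 ERY arrays lay above all 4 HSPC arrays, as they did for 16.3% of all genes. Among the 12987 expressed genes, those above the background of the arrays as defined below, the called shares were 11.7% lower for MEG against ERY, 17.4% lower for MEG against HSPC and 12.7% higher for ERY against HSPC. The comparisons share their arrays and are not independent of each other.

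**Figure D1:**
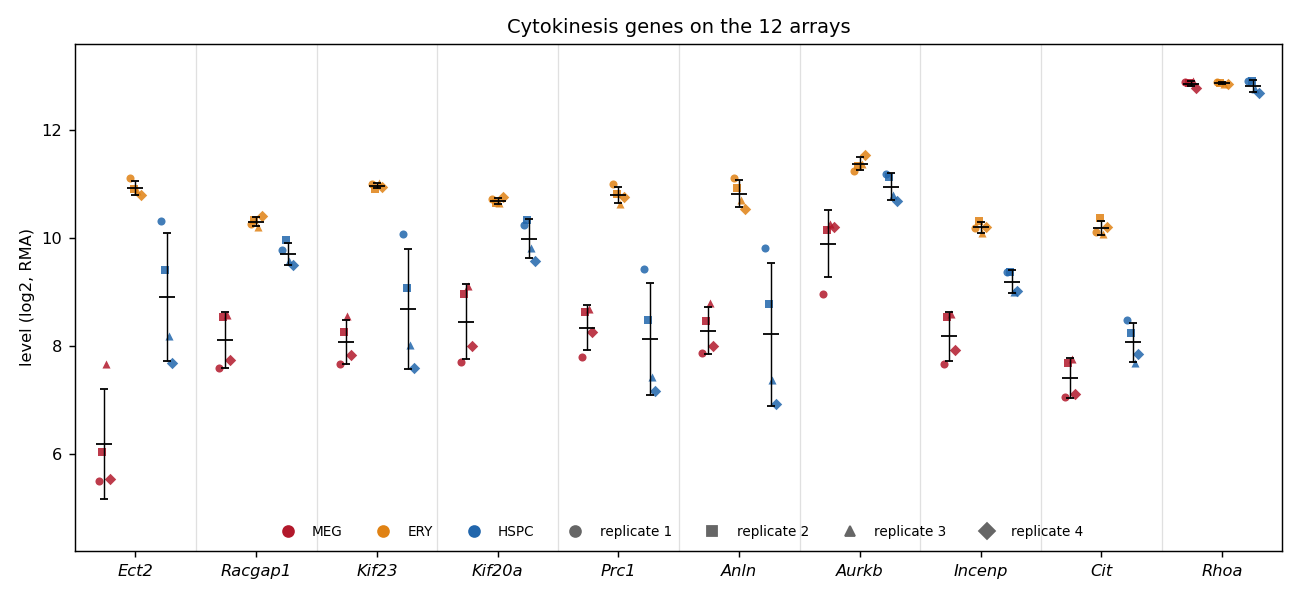
Levels (log2, RMA) of the 10 cytokinesis genes on each of the 12 arrays, with MEG in red, ERY in orange and HSPC in blue, marker shape giving the replicate and bars the mean ± SD of 4 arrays. ERY arrays sit together near the top for every gene, *Ect2* reaches the lowest values on MEG arrays (5.50 to 7.67), 4 genes spread widely over the HSPC arrays, and *Rhoa* is level.

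*Ect2* had the largest fall of the 10 genes in MEG against both other populations. Its level was 5.50, 6.04, 7.67 and 5.53 on the MEG arrays, 11.11, 10.91, 10.87 and 10.81 on the ERY arrays and 10.32, 9.40, 8.19 and 7.69 on the HSPC arrays. The 3 populations did not overlap, although MEG array 3 and HSPC array 4 were separated by a small gap. *Ect2* was lower in MEG than in ERY by 26.7-fold, with a log2 fold change of -4.74 ± 0.56 (SE, n = 4 arrays each, limma adjusted p = 2.98e-05). It was lower in MEG than in HSPC at -2.72 ± 0.56 (limma adjusted p = 0.00223) and higher in ERY than in HSPC at 2.02 ± 0.56 (limma adjusted p = 0.0132). Leaving out single arrays moved the change in MEG against HSPC between -3.21, without MEG array 3, and -2.25, without HSPC array 1, and the call was kept each time.

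The MEG values of *Ect2* lay near the background of the arrays, which bounds what the change can show. As a measure of background, 1027 olfactory receptor genes, which blood cells are not known to use, were taken on each array. Genes whose highest population mean reached 5.92, the 95th percentile of the means of these receptor genes over the 12 arrays, counted as expressed. Their 95th percentile was 6.04, 5.91, 5.64 and 7.35 on MEG arrays 1 to 4, so *Ect2* stood above it on MEG array 3, by a little on MEG array 2, and not on MEG arrays 1 and 4. The level of *Ect2* exceeded that of 86.6%, 96.4%, 99.8% and 42.6% of the olfactory receptor genes on MEG arrays 1 to 4, and of at least 99.8% on every ERY and HSPC array. On MEG arrays 1 and 4 its level is therefore an upper limit. With these values raised to the background of their array, *Ect2* differed by -4.15 for MEG against ERY and by -2.13 for MEG against HSPC. MEG array 4 had the highest background of the 12 arrays, with a median of 5.70 over the olfactory receptor genes, and without it *Ect2* was still lower in MEG than in HSPC at -2.50 (limma adjusted p = 0.00968). Of the other 9 genes, only *Cit* on MEG array 4, at 7.12, lay at or below this background on any array.

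Both parts of centralspindlin were lower in MEG than in ERY, but they differed in HSPC. *Racgap1*, the GTPase activating subunit, had levels of 7.59, 8.54, 8.58 and 7.74 on the MEG arrays, 10.26, 10.34, 10.21 and 10.41 on the ERY arrays and 9.77, 9.96, 9.58 and 9.5 on the HSPC arrays. All MEG arrays lay below all HSPC arrays, which in turn lay below all ERY arrays. *Racgap1* was lower in MEG than in HSPC by 3.02-fold, at -1.59 ± 0.22 (SE, limma adjusted p = 0.000142), and lower in MEG than in ERY at -2.19 (limma adjusted p = 7.07e-06). Against HSPC, ERY differed by 0.60, short of the 2-fold limit (limma adjusted p = 0.0535). *Kif23*, the kinesin of the complex, had levels of 7.67, 8.25, 8.55 and 7.83 on the MEG arrays, 11.01, 10.92, 11.02 and 10.95 on the ERY arrays and 10.08, 9.07, 8.02 and 7.59 on the HSPC arrays. Its HSPC arrays spread so widely that array 3 lay among the MEG arrays and array 4 below all of them. The difference of MEG from HSPC was -0.62 ± 0.42 with a 95% interval of -1.54 to 0.31 (limma adjusted p = 0.29). *Kif23* was higher in ERY than in HSPC at 2.28 (limma adjusted p = 0.00107) and lower in MEG than in ERY at -2.90 (limma adjusted p = 0.000191).

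Of the genes of the midzone, *Kif20a* fell in MEG and *Prc1* rose in ERY. *Kif20a*, the kinesin that carries the passenger complex, had levels of 7.71, 8.97, 9.11 and 8.0 on the MEG arrays, 10.72, 10.64, 10.65 and 10.76 on the ERY arrays and 10.24, 10.33, 9.82 and 9.57 on the HSPC arrays. The populations stood apart in that order of levels, MEG lowest and ERY highest. *Kif20a* was lower in MEG than in HSPC at -1.54 ± 0.29 (SE, limma adjusted p = 0.00125) and lower in MEG than in ERY at -2.25 (limma adjusted p = 6.55e-05), and ERY differed from HSPC by 0.70 (limma adjusted p = 0.0864). With array weights, *Kif20a* in MEG against HSPC was at -0.93 and not called. *Prc1*, the microtubule bundler, had levels of 7.79, 8.63, 8.68 and 8.26 on the MEG arrays, 10.996, 10.82, 10.63 and 10.76 on the ERY arrays and 9.43, 8.49, 7.42 and 7.16 on the HSPC arrays. MEG and HSPC arrays overlapped, with the HSPC arrays on both sides of the MEG arrays. *Prc1* was higher in ERY than in HSPC at 2.67 (limma adjusted p = 0.000234) and lower in MEG than in ERY at -2.46 (limma adjusted p = 0.000488). The difference of MEG from HSPC was 0.22 ± 0.41 with a 95% interval of -0.66 to 1.10 (limma adjusted p = 0.717).

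Both subunits of the passenger complex were called lower in MEG against HSPC, close to the 2-fold limit. *Aurkb*, the kinase, had levels of 8.96, 10.16, 10.27 and 10.21 on the MEG arrays, 11.25, 11.35, 11.38 and 11.54 on the ERY arrays and 11.19, 11.14, 10.80 and 10.69 on the HSPC arrays. MEG array 1 stood far below the other MEG arrays, which were themselves below every HSPC array. *Aurkb* was lower in MEG than in HSPC at -1.06 ± 0.26 (SE, limma adjusted p = 0.0066) and lower in MEG than in ERY at -1.48 (limma adjusted p = 0.000727), and ERY differed from HSPC by 0.42 (limma adjusted p = 0.259). *Incenp*, the scaffold, had levels of 7.66, 8.54, 8.59 and 7.92 on the MEG arrays, 10.19, 10.32, 10.09 and 10.21 on the ERY arrays and 9.37, 9.38, 9.0 and 9.01 on the HSPC arrays, with no overlap between populations. It was lower in MEG than in HSPC at -1.01 ± 0.20 (SE, limma adjusted p = 0.00188), higher in ERY than in HSPC at 1.01 (limma adjusted p = 0.0018) and lower in MEG than in ERY at -2.02 (limma adjusted p = 7.02e-06). Without MEG array 1 the change in MEG against HSPC was -0.74 for *Aurkb* and -0.84 for *Incenp*, and neither passed the 2-fold limit, nor did *Incenp* without MEG array 4, at -0.93. The call of *Incenp* in ERY was lost without HSPC array 3 or HSPC array 4, at 0.95 each, and without ERY array 2, at 0.97. Centring each array on its median, which moved the median of all genes by 0.11, gave -0.95 for *Aurkb* and -0.91 for *Incenp*, and neither was called.

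*Anln* and *Cit*, which act in the ring and the midbody, were high in ERY and were not called between MEG and HSPC. *Anln* had levels of 7.87, 8.47, 8.80 and 8.0 on the MEG arrays, 11.12, 10.92, 10.71 and 10.54 on the ERY arrays and 9.82, 8.78, 7.36 and 6.92 on the HSPC arrays. HSPC array 1 lay above every MEG array, and HSPC arrays 3 and 4 lay below every MEG array. *Anln* was higher in ERY than in HSPC at 2.61 (limma adjusted p = 0.00141) and lower in MEG than in ERY at -2.54 (limma adjusted p = 0.00196). The difference of MEG from HSPC was 0.07 ± 0.50 with a 95% interval of -1.03 to 1.16 (limma adjusted p = 0.936). *Cit* had levels of 7.05, 7.69, 7.76 and 7.12 on the MEG arrays, 10.11, 10.37, 10.07 and 10.20 on the ERY arrays and 8.48, 8.24, 7.69 and 7.85 on the HSPC arrays. MEG and HSPC arrays overlapped between 7.69 and 7.76, and the ERY arrays stood well above both. *Cit* was higher in ERY than in HSPC at 2.12 (limma adjusted p = 7.21e-06) and lower in MEG than in ERY at -2.79 (limma adjusted p = 5.2e-07). The difference of MEG from HSPC, -0.66 ± 0.21, fell short of the 2-fold limit (limma adjusted p = 0.0276).

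*Rhoa*, the GTPase on which the pathway acts, was level across the populations. It had levels of 12.90, 12.88, 12.91 and 12.79 on the MEG arrays, 12.89, 12.88, 12.86 and 12.87 on the ERY arrays and 12.91, 12.91, 12.77 and 12.69 on the HSPC arrays. All 12 arrays lay within 0.22 of each other. The difference was 0.05 for MEG against HSPC (95% interval -0.18 to 0.27), 0.05 for ERY against HSPC (-0.17 to 0.27) and -0.01 for MEG against ERY (-0.23 to 0.22), so changes of 2-fold lie outside each interval. A second probe set of *Rhoa* read between 12.26 and 12.51 over the 12 arrays. Centring on ribosomal protein genes moved the median of all genes by 0.46 for MEG against HSPC. It put *Rhoa* at 0.51 in that comparison (limma adjusted p = 0.00576), short of 2-fold, so the level reading holds for the deposited scaling. RefSeq lists 3 pseudogenes named after *Rhoa*, and RNA or probes shared with such copies were not resolved here. The arrays measure RNA and not the activity of the GTPase.

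**Figure D2:**
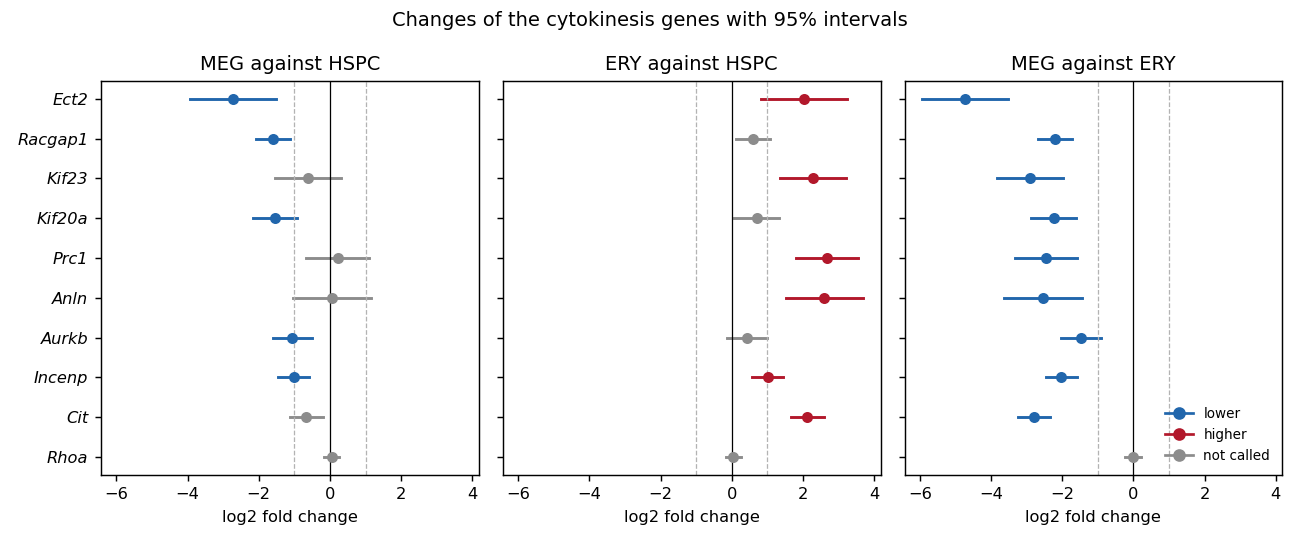
Log2 fold change of each cytokinesis gene with its 95% interval (limma, 4 arrays per population) for MEG against HSPC, ERY against HSPC and MEG against ERY, with called decreases in blue, called increases in red, uncalled differences in grey and dashed lines at a 2-fold change. *Ect2* lies at -4.74 for MEG against ERY, 9 genes are called lower there, and the interval of *Rhoa* stays close to 0 in each panel.

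Partners of 1 complex were then compared on the same array, where a shift common to the array cancels. The difference of 2 probe sets has no meaning as a level, and only its change between populations was read. *Ect2* minus *Kif23* was -2.17, -2.21, -0.87 and -2.30 on the MEG arrays, 0.10, -0.01, -0.15 and -0.14 on the ERY arrays and 0.24, 0.33, 0.17 and 0.11 on the HSPC arrays. *Ect2* and *Kif23* thus kept nearly the same difference on all ERY and HSPC arrays, even though both varied widely over the HSPC arrays, and only the MEG arrays stood far below. The difference was -1.89 ± 0.68 in MEG, -0.05 ± 0.12 in ERY and 0.21 ± 0.10 in HSPC (SD, n = 4). The change was -2.10 for MEG against HSPC and -1.84 for MEG against ERY (exact permutation test, two-sided, p = 0.0286 each, the smallest p that 4 arrays against 4 allow, and 0.049 after Benjamini-Hochberg adjustment over 12 tests). *Ect2* at the background of MEG arrays 1 and 4 bounds this difference too. ERY against HSPC gave -0.26 (exact permutation p = 0.0286, adjusted 0.049).

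Within centralspindlin, *Kif23* minus *Racgap1* averaged -0.04 ± 0.18 in MEG, 0.67 ± 0.13 in ERY and -1.02 ± 0.98 in HSPC (SD, n = 4). The HSPC arrays ran between 0.31 on array 1 and -1.92 on array 4, so the 2 subunits did not change by the same amount there. The change was -0.71 for MEG against ERY and 1.68 for ERY against HSPC (exact permutation p = 0.0286, adjusted 0.049, for each), and 0.98 for MEG against HSPC (exact permutation p = 0.143, adjusted 0.156). *Ect2* minus *Racgap1* averaged -1.93 ± 0.70 in MEG, 0.62 ± 0.19 in ERY and -0.80 ± 1.04 in HSPC. It changed by -2.55 for MEG against ERY (exact permutation p = 0.0286, adjusted 0.049), while -1.12 for MEG against HSPC (p = 0.143, adjusted 0.156, exact permutation) and 1.42 for ERY against HSPC (p = 0.0571, adjusted 0.0762, exact permutation) missed the threshold. Within the passenger complex, *Aurkb* minus *Incenp* averaged 1.72 ± 0.42 in MEG, 1.18 ± 0.16 in ERY and 1.76 ± 0.06 in HSPC. The change of -0.04 for MEG against HSPC was smaller than the spread of the MEG arrays (exact permutation p = 0.83), ERY against HSPC gave -0.59 (exact permutation p = 0.0286, adjusted 0.049), and MEG against ERY gave 0.55 (exact permutation p = 0.0571, adjusted 0.0762).

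**Figure D3:**
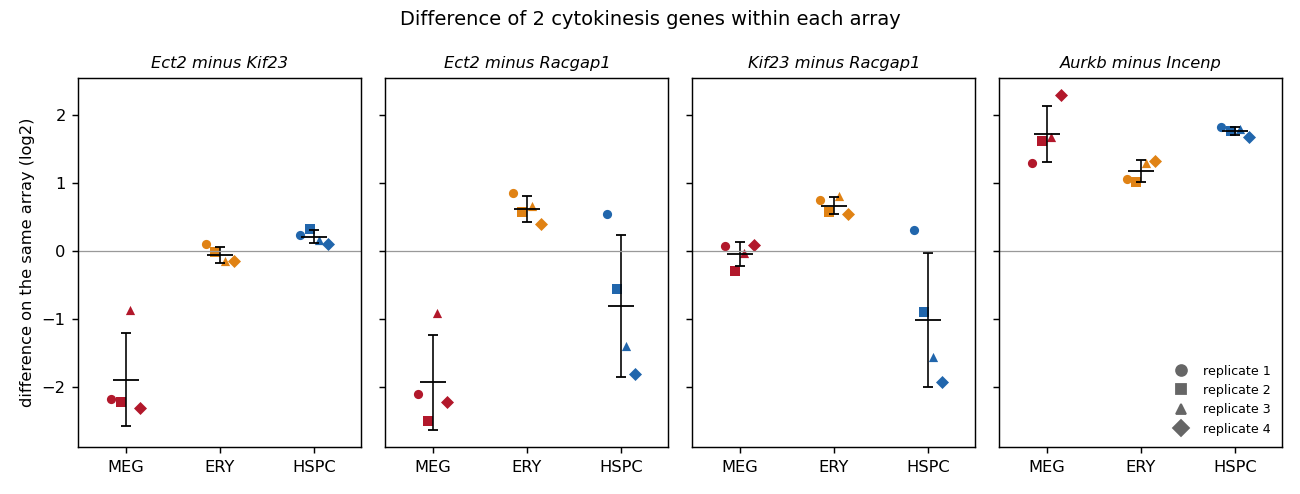
Difference of 2 genes on the same array (log2) for *Ect2* minus *Kif23*, *Ect2* minus *Racgap1*, *Kif23* minus *Racgap1* and *Aurkb* minus *Incenp*, with MEG, ERY and HSPC side by side, 1 marker per array and bars for the mean ± SD of 4 arrays. *Ect2* minus *Kif23* is near 0 on all ERY and HSPC arrays and between -2.30 and -0.87 on the MEG arrays, and the HSPC arrays spread in both panels with *Racgap1*.

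All 10 cytokinesis genes read higher on HSPC arrays 1 and 2 than on HSPC arrays 3 and 4, and 4 of them varied far more than the rest. Between its highest and lowest HSPC array, *Anln* differed by 2.89, *Ect2* by 2.62, *Kif23* by 2.49 and *Prc1* by 2.27. Among the expressed genes, only 1.4%, 2.7%, 3.5% and 5.3% had a wider range over these arrays than *Anln*, *Ect2*, *Kif23* and *Prc1*, in that order. The range was 0.79 for *Cit*, 0.76 for *Kif20a*, 0.50 for *Aurkb*, 0.46 for *Racgap1*, 0.38 for *Incenp* and 0.22 for *Rhoa*, and the median range of the expressed genes was 0.76. The highest HSPC array was array 1 for 6 genes, and the lowest was array 4 for 8. The median SD of the expressed genes was 0.31 over the MEG arrays, 0.15 over the ERY arrays and 0.36 over the HSPC arrays. The median of the 10 genes was 9.95, 9.39, 8.60 and 8.43 on HSPC arrays 1 to 4, the median of 13 other mitotic genes was 10.01, 9.90, 9.16 and 8.78, and the median of 12 genes of DNA replication was 10.80, 10.90, 10.78 and 10.75 on the same arrays. The median of the mitotic genes thus stepped down over these arrays as that of the cytokinesis genes did, and the median of the replication genes did not. Single genes differed within each list. The SD over the HSPC arrays was 0.105 for *Cdk1* and 1.626 for *Bub1* among the mitotic genes. Among the replication genes it was 0.123 for *Mcm3* and 0.879 for *Mcm4*. A wide spread was also seen outside these lists, as for *Rock1* with an SD of 1.689. Cell type markers differed as well, since the median of the ERY markers was 8.03 on HSPC array 1 and 7.03 to 7.05 on the others, that of the MEG markers was 8.27 on HSPC array 1 and 9.54 to 9.69 on the others, and that of the hepatocyte markers was 10.39 on HSPC array 2 and 8.44 to 8.88 on the others. The labels name no batch among these arrays, and the part of the markers in the split was not tested.

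Each comparison with HSPC was therefore repeated against each pair of HSPC arrays. Against HSPC arrays 3 and 4 alone, 3 genes were lower in MEG, *Ect2*, *Racgap1* and *Kif20a*, and 2 were higher, *Prc1* at 1.05 and *Anln* at 1.14, while 13.9% of all genes were called lower and 12.7% higher. Against HSPC arrays 1 and 2 alone, 7 were lower in MEG and 0 higher, while 9.69% of all genes were called lower and 5.4% higher. *Anln* changed direction, at -1.01 (limma adjusted p = 0.0453), and *Kif23* was called lower at -1.5 (limma adjusted p = 0.00407). *Ect2* was called lower in MEG in each case, at -1.76 against HSPC arrays 3 and 4 and at -3.68 against HSPC arrays 1 and 2. ERY against HSPC arrays 3 and 4 gave 6 genes higher, where 12.3% of all genes were called higher. ERY against HSPC arrays 1 and 2 gave 4, where 5.86% of all genes were called higher. *Ect2* at 1.06 (limma adjusted p = 0.165) and *Incenp* at 0.83 were no longer called there. The comparison of MEG with ERY does not use these arrays for its fold changes. Its SE, intervals and p-values do depend on them, because all 12 arrays share 1 estimate of the spread.

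**Figure D4:**
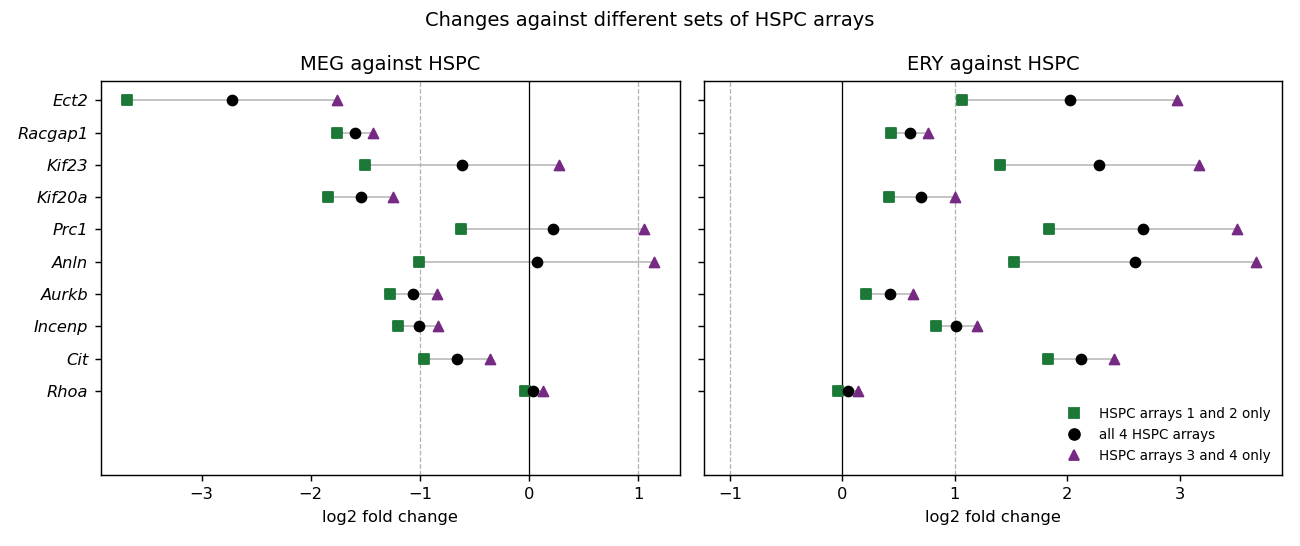
Log2 fold change of each cytokinesis gene for MEG against HSPC and for ERY against HSPC, computed against HSPC arrays 1 and 2 (squares), all 4 HSPC arrays (circles) and HSPC arrays 3 and 4 (triangles), with dashed lines at a 2-fold change. *Ect2*, *Kif23*, *Prc1* and *Anln* move the most with the choice of HSPC arrays, and *Anln* lies at -1.01 and at 1.14 for MEG at the extremes.

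Genes that work beside these 10 were grouped into lists of 87 further measured genes. Of these, 21 were at or below the array background, the 95th percentile of the olfactory receptor genes, on at least 1 array. The counts of each list stand beside the shares over all genes. In MEG against ERY, 7.77% of all genes were called lower and 8.75% higher. The shares were 11.4% lower and 8.77% higher in MEG against HSPC, and 12.3% lower and 8.35% higher in ERY against HSPC. Of 7 partners in the passenger complex and the midzone, 5 were lower in MEG than in ERY and 0 higher (median -1.84), and at an unadjusted p under 0.05 limma gave 5 lower and 1 higher. These were *Kif14*, a midzone kinesin that binds citron kinase, at -2.81, *Kif4*, the chromokinesin partner of PRC1, at -2.70, *Birc5* (survivin) at -2.53, *Plk1* at -1.84 and *Cdca8* (borealin) at -1.72. Against HSPC, *Birc5* at -1.55 and *Plk1*, the kinase that primes centralspindlin for ECT2, at -1.52 were lower in MEG, and *Kif4* at 3.05, *Kif14* at 2.91 and *Kif20b* at 1.66 were higher in ERY. Against HSPC arrays 3 and 4 alone, 2 partners were lower and 2 higher in MEG, where 13.9% of all genes were lower and 12.7% higher. With HSPC arrays 1 and 2 alone, 3 were lower and 0 higher, where 9.69% of all genes were lower and 5.4% higher.

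Genes of the contractile ring were called in both directions. Of 14 measured genes for myosin, formins, the kinase ROCK and septins, 7 were higher and 2 lower in MEG against ERY (median 0.90), where 8.75% of all genes were called higher. The higher genes included *Myh9*, the heavy chain of myosin IIA, at 2.63, *Myl9* at 2.24, *Septin11* at 2.23 and the formin gene *Diaph1* at 2.20. The lower genes were *Myh10*, the heavy chain of myosin IIB, at -3.20, and the formin gene *Diaph3* at -2.32. Against HSPC, 6 were higher in MEG, with *Rock1* at 2.58, *Diaph1* at 2.38, *Septin7* at 2.33 and *Myh9* at 2.02 the largest, and 3 were lower, *Septin6* at -2.38, *Myl12b* at -1.17 and *Myh10* at -1.07. In ERY against HSPC, *Rock1* at 2.81, *Diaph3* at 2.71, *Myh10* at 2.13 and *Septin7* at 1.90 were higher, and *Septin6* at -3.98, *Septin9* at -2.57 and *Myl12b* at -1.5 were lower. The SD over the HSPC arrays was wide for *Rock1*, at 1.689, and for *Septin7*, at 1.687. *Rock1* was at or below the background on 1 HSPC array. With this value raised to it, *Rock1* differed from HSPC by 2.45 in MEG and by 2.68 in ERY. *Myh10* averaged 6.07 ± 0.24 in MEG, 9.26 ± 0.27 in ERY and 7.14 ± 0.35 in HSPC (SD, n = 4 arrays each). On 2 MEG arrays it was at or below the background, and with these raised to it *Myh10* differed by -2.81 for MEG against ERY and by -0.69 for MEG against HSPC, the last short of 2-fold. Against HSPC arrays 1 and 2 alone, 4 of these genes were higher and 4 lower in MEG. Of all genes, 5.4% were called higher and 9.69% lower there. With HSPC arrays 3 and 4 alone, 7 were higher and 2 lower, where 12.7% of all genes were called higher and 13.9% lower.

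Among 10 measured paralogues and regulators of RhoA, as many were higher as lower. In MEG against ERY, 4 were higher, *Arhgdib*, an inhibitor of GDP release from GTPases of this family, at 4.17, *Rhob* at 2.80, *Arhgef2* at 2.51 and *Rhoc* at 1.80, and 4 were lower, the exchange factor genes *Net1* at -2.05 and *Arhgef12* at -1.72 and the GTPase activating genes *Arhgap19* at -1.65 and *Arhgap11a* at -1.43. In MEG against HSPC, *Arhgef12* at 3.08 and *Rhoc* at 2.12 were higher, and *Arhgef1* at -1.30 and *Arhgef11* at -1.29 were lower. *Arhgef2*, which encodes GEF-H1, differed in MEG against HSPC by -0.23 (limma adjusted p = 0.414), with means of 9.06 ± 0.44 in MEG, 6.55 ± 0.12 in ERY and 9.29 ± 0.22 in HSPC (SD, n = 4 arrays each). Its level in ERY was lower than in HSPC at -2.73, beside *Arhgdib* at -4.24, *Rhob* at -2.0 and *Arhgef1* at -1.27, while *Arhgef12* at 4.80, *Arhgap11a* at 1.89, *Net1* at 1.57 and *Arhgap19* at 1.17 were higher in ERY. *Arhgef12* was at or below the background on 3 HSPC arrays, and with these raised to it the differences were 2.71 for MEG and 4.43 for ERY against HSPC. *Arhgef11* was at background on 2 MEG arrays and gave -0.97 for MEG against HSPC in this way, short of 2-fold. Of the 2 exchange factors named above for endomitosis, *Ect2* was thus lower in MEG than in both other populations. *Arhgef2* was not called between MEG and HSPC, and was higher in MEG than in ERY, where it was lower than in HSPC.

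Genes for the midbody and abscission, the final cut between daughter cells, were mostly not called. Of 19 measured genes, MEG against ERY gave 3 higher and 0 lower (median 0.27), where 8.75% of all genes were called higher. These were *Chmp2b* at 1.87, *Cep55*, which recruits the ESCRT machinery to the midbody, at 1.63 and the ATPase gene *Vps4b* at 1.03, and at an unadjusted p under 0.05 limma gave 1 lower and 6 higher. In MEG against HSPC, 5 were higher, *Chmp2b* at 1.73, *Chmp5* at 1.70, *Chmp1b* at 1.55, *Pdcd6ip* (ALIX) at 1.22 and *Vps4b* at 1.0, and 1 was lower, *Zfyve19*, a gene of the abscission checkpoint, at -1.44, where 8.77% of all genes were called higher and 11.4% lower. Against HSPC arrays 1 and 2 alone 1 was higher, where 5.4% of all genes were, and against HSPC arrays 3 and 4 alone 8 were, where 12.7% of all genes were. In ERY against HSPC, *Chmp1b* at 1.28 and *Chmp5* at 1.07 were higher, and *Cep55* at -1.57, *Zfyve19* at -1.43 and *Ist1* at -1.06 were lower. *Cep55* was at or below the background on all 4 ERY arrays, where its level is only an upper limit. With values raised to the background, it differed by 1.09 for MEG against ERY and by -0.97 for ERY against HSPC, the last short of 2-fold.

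Genes of the complexes known to bind TTTGAA were examined as a list of 12, those of MYBL2, FOXM1 and subunits of the DREAM complex. Which of these proteins touches the element itself was not examined, and subunits of NF-Y were not in the lists. In MEG against ERY, 9 were lower and 1 higher (median -1.10), with *Mybl2* at -2.82, *E2f4* at -2.50, *Foxm1* at -2.35 and *Rbl1* at -2.10 the largest decreases and *Rbl2* (p130), a pocket protein of resting cells, higher at 1.35. In MEG against HSPC, 6 were lower and 1 higher (median -0.72), with *Mybl2* at -2.12, *Foxm1* at -2.01, *E2f4* at -1.61 and *Lin37* at -1.10 lower and *Rbl2* higher at 1.55. In ERY against HSPC, 3 were higher and 0 lower (median 0.51), *Lin54* at 1.78, *Rbl1* at 1.76 and *Lin9* at 1.62, and at an unadjusted p under 0.05 limma gave 1 lower and 6 higher. *Mybl2* averaged 7.58 ± 0.67 in MEG, 10.40 ± 0.10 in ERY and 9.71 ± 0.53 in HSPC (SD, n = 4 arrays each), and *Foxm1* averaged 7.31 ± 0.54 in MEG, 9.66 ± 0.10 in ERY and 9.32 ± 0.29 in HSPC (SD, n = 4 arrays each).

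Other genes of the cell cycle were read for comparison. Of 13 measured mitotic genes outside cytokinesis, 12 were lower in MEG than in ERY and 0 higher (median -1.80), with *Aurka* at -2.43 and *Mki67*, the Ki-67 antigen of cycling cells, at -2.26 the largest, and *Bub1* was not called at -1.71 (limma adjusted p = 0.0786). At an unadjusted p under 0.05 limma gave 13 lower and 0 higher. Against HSPC, 4 were lower in MEG (median -0.09), *Aurka* at -1.56, *Bub1b* at -1.40, *Cdc20* at -1.37 and *Cdk1* at -1.0, and 8 were higher in ERY (median 1.44), with *Cenpe* at 3.14, *Mki67* at 2.90, *Cenpf* at 2.83 and *Bub1* at 2.16 the largest. Against HSPC arrays 3 and 4 alone, 3 of the mitotic genes were lower and 5 higher in MEG. Of all genes, 13.9% were called lower and 12.7% higher there. With HSPC arrays 1 and 2 alone, 3 mitotic genes were lower and 0 higher in MEG, where 9.69% of all genes were lower and 5.4% higher. Against HSPC arrays 1 and 2 alone, 4 mitotic genes were higher in ERY, where 5.86% of all genes were. Of 12 genes of DNA replication, 12 were lower in MEG than in ERY (median -2.17), with *Rrm2* at -3.23, *Cdc6* at -3.00 and *Cdt1* at -2.82 the largest, and 8 were lower in MEG than in HSPC (median -1.71), with *Cdt1* at -2.71, *Mcm7* at -2.62, *Mcm5* at -2.51 and *Mcm3* at -2.11 the largest. In ERY against HSPC, 3 replication genes were higher, *Rrm2* at 1.66, *Mcm4* at 1.27 and *Rrm1* at 1.03. Of the replication genes, 0 were higher in MEG against either population, also at an unadjusted p under 0.05 by limma.

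**Figure D5:**
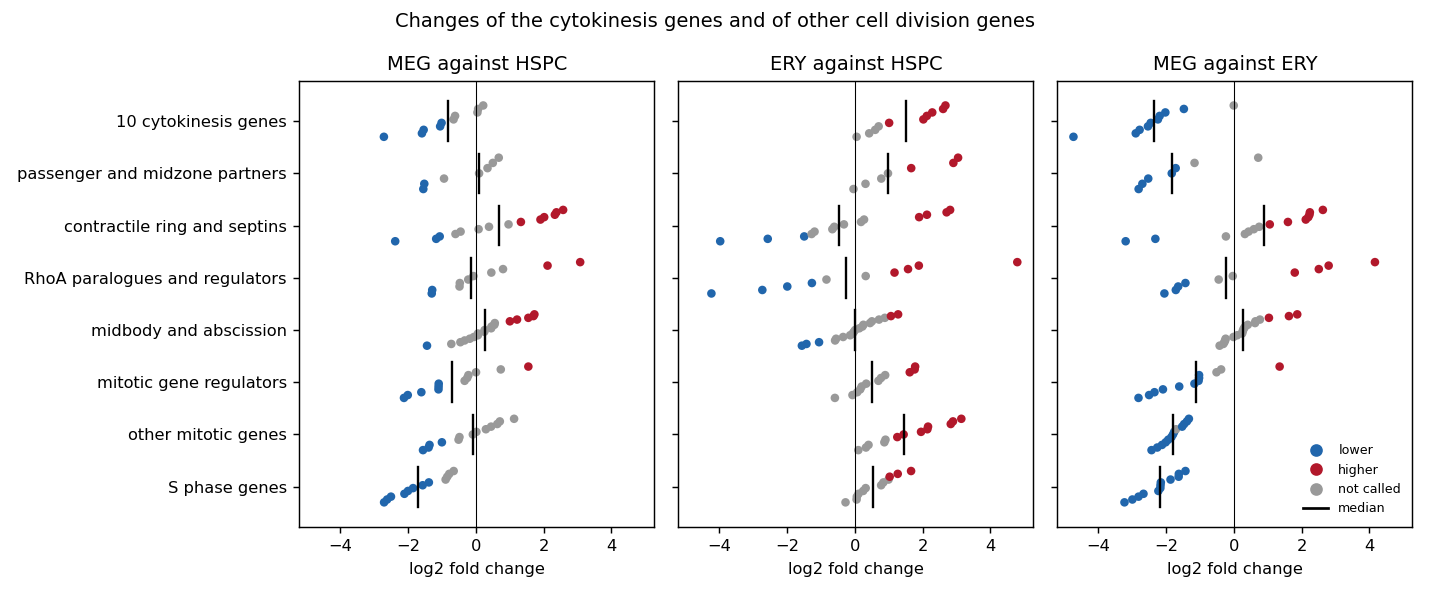
Log2 fold changes of the 10 cytokinesis genes and of 7 lists of other cell division genes for MEG against HSPC, ERY against HSPC and MEG against ERY, with 1 point per gene, called decreases in blue, called increases in red, uncalled genes in grey and a bar at the median of the list. Between MEG and ERY the cytokinesis, mitotic and replication genes lie below 0, *Rhoa* at -0.01, while most called genes of the contractile ring lie above 0.

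The genes whose pattern over the 12 arrays was most like that of a member were sought among 9968 other genes at or above the level of the median gene. For *Ect2* they were *Kif2c*, a kinesin of the kinetochore, with a Pearson r of 0.986, *Cdca2* (0.985), *Alms1* (0.980), *Spag5* (0.979), a spindle protein gene, and *Ddx59* (0.976). For *Kif23* they were *Brca1* (0.991), a gene of DNA repair, *Stil* (0.990), a gene of centriole duplication, *Tmpo* (0.988), *Rbl1* (0.988) and *Macir* (0.986). For *Rhoa* they were *Nsa2* (0.947), *Cog3* (0.941), *Ppp2r5a* (0.935), *Ap2b1* (0.934) and *Dnajc10* (0.934), on values that scarcely varied. Among the 9 members other than *Rhoa*, the 36 pairs had r between 0.639 and 0.992 (median 0.903), and *Rhoa* had r between 0.03 and 0.584 with them (median 0.267). After the mean of each population was taken off, the same pairs of 9 members had r between 0.484 and 0.983 (median 0.75), and *Rhoa* had r between 0.161 and 0.853 (median 0.66), the highest with *Anln*. *Rhoa* thus varied with several members among arrays of 1 population, within a range of 0.22. The 12 points of each r fall into 3 populations of 4 and share their arrays, so r is given as a description only.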

How the data were processed

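RNA of the 3 populations was hybridised to arrays, with 4 biological replicates each. The labels call it total RNA and the methods describe purified mRNA, which could not be settled here. For each sample the authors deposited RMA values on the log2 scale, 1 per probe set on each array. RMA corrects the background, equalizes the arrays and summarizes the probes. Its version and settings are not given in the sources used, and the files hold no intensity and no background flag, so the number of arrays limits the precision. Array medians over the 34760 probe sets lay between 5.99 and 6.25. The 21640 probe sets with 1 gene symbol in the platform's annotation were used, and 1321 with several and 11799 with none were left out. Of the 19937 genes, 954 had more than 1 probe set, and the one with the highest mean over the 12 arrays was taken. No filter on low values was applied. Among the pathway genes, Rock2, Arhgdia and Ccnb1 were not measured by such a probe set, and among the markers neither were Gp6 and Ly6a.

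Models with 1 mean per population were fitted to all 12 arrays with limma 3.58.1 in R 4.3.3, with thresholds of 2-fold and an FDR of 5% as in the methods of the study, and were checked on simulated data. Exact permutation tests and all tables and figures used Python 3.11.15, numpy 2.4.6, pandas 2.3.3, scipy 1.17.1 and matplotlib 3.10.9. The replicates came from separate samples by the methods, but equal numbers did not mark a shared litter or day in the labels. Members, lists and tests were chosen with earlier results of these data known, and the other *Rhoa* probe set and the list counts against pairs of HSPC arrays were added after seeing the data, as was raising values to the array background. Named genes are the 10 members, up to 4 called genes with the largest change per list, direction and comparison, any gene behind a count of 5 or fewer, and the 5 genes with the highest Pearson r to *Ect2*, *Kif23* and *Rhoa*. Promoter windows came from the RefSeq table for GRCm38.p6, and where a gene had several windows the first was used. Alternatives were 2 filters on low values, the mean over probe sets, quantile normalization, centring on array medians or on 52 ribosomal protein genes, array weights, a trended and robust variance, a fit of 8 arrays, the replicate number as a block, a test against 1.5-fold, an FDR of 1% and leaving out arrays. Data on chromatin were not used here.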

Additional observations from a re-analysis of the deposited data

Results flagged for a closer look

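*Aurkb* on MEG array 1, at 8.96, lay far below the other MEG arrays, which ran between 10.16 and 10.27. The gap was 0.914 of the whole range of the 4 arrays and passed the limit of Dixon's test for groups of 4. It was the 1 such case among the 30 groups examined, the 10 genes in 3 populations, and chance alone is set to give about 5% of groups. MEG array 1 was the lowest MEG array for 9 of the 10 genes, all but *Rhoa*. It was also the lowest in the median of the replication genes, at 7.48 beside 8.74 to 9.56, and of the other mitotic genes, at 7.97 beside 8.76 to 9.43.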

How the results depend on the processing

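Of the member fold changes under settings other than single arrays, 400 kept their side of the thresholds (4 of them, with values raised to the array background, untested), 20 lost the call, 6 gained one and 1 called change went against the sign of the fit to all arrays, *Anln* for MEG against HSPC at -1.01 without HSPC arrays 3 and 4. With single arrays left out, 230 kept their side and 10 lost the call. The sign turned in 12 values of 6 fold changes in the first case and in 6 values of 3 in the second. For MEG against HSPC these were *Anln*, *Prc1* (lowest -0.62 without HSPC arrays 3 and 4) and *Kif23* (highest 0.27 without HSPC arrays 1 and 2), and the rest were *Rhoa*, whose turned values lay between -0.04 and 0.08. For MEG against HSPC, the 5 members called lower became 3 with quantile normalization, with centring on array medians, with centring on ribosomal protein genes, with the test against 1.5-fold, without HSPC arrays 1 and 2 and without MEG arrays 1 and 3, and 2 with array weights, where *Kif20a* was not called at -0.93. The 0 called higher became 2, *Prc1* and *Anln*, with array weights and without HSPC arrays 1 and 2. Single arrays left out gave 3 to 5 lower and 0 higher. For ERY against HSPC they gave 5 to 6 higher, *Incenp* falling to 0.95 without HSPC array 3 or HSPC array 4 and to 0.97 without ERY array 2, and for MEG against ERY 9 lower each time. *Aurkb* minus *Incenp* for MEG against HSPC ran between -0.23 and 0.10 and turned to 0.10 without MEG array 1. Centring on ribosomal protein genes moved the median of all genes by 0.46, 0.39 and 0.08 for MEG against HSPC, ERY against HSPC and MEG against ERY. With the replicate number as a block, 5 members were lower in MEG and 6 higher in ERY against HSPC, and 9 lower in MEG against ERY, as without the block. Of 12 pairings of arrays with equal replicate numbers, 5 correlated above 0.1 (-0.35 to 0.362), so the numbers were not taken as pairs. *Ect2* on MEG arrays 1 and 4 was limited by the array background.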
